A study of Mus musculus with 22 samples.

Results

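The 76 genes for cytosolic ribosomal proteins were followed across the 6 genotype groups of 2 RNA-seq experiments on ventricles of E13.5 mouse embryos. They were chosen by name, as every row of the count tables whose symbol is Rpl or Rps with a number and at most a closing a or x, or is Rplp0, Rplp1, Rplp2 or Rpsa. They make up 76 of 48709 rows, 46 for the large and 30 for the small subunit. Experiment 1 compared LIN9 KO with LIN9 wt ventricles, and its labels name no Sav1 genotype. Experiment 2 held the 4 combinations of the 2 loci: control (wild-type label for Lin9 and Sav1), LIN9 KO, Sav1 KO, and the double KO. Each group had 3 libraries, which makes 18 in all. In all groups the heart carried Nkx2.5-Cre, which is active from early cardiac precursors on, so cells outside that lineage keep their alleles. The conditional alleles have loxP sites around exon 7 of Lin9 and exon 3 of Sav1. The labels call the LIN9 wt groups wild-type, while the study's text gives their genotype as Lin9 fl/+.

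A ribosome is built from ribosomal RNA and one copy of nearly every ribosomal protein, the P-stalk proteins being the known exception, and its genes are therefore transcribed at high and matched rates in growing tissue. Their mRNAs are the best known TOP mRNAs, which begin with a run of pyrimidines that couples their translation to mTORC1 signalling. LIN9 is a subunit of MuvB, which with B-MYB activates genes of the late cell cycle, and Salvador, encoded by Sav1, is a scaffold of the Hippo kinases that restrain YAP. The comparisons ask what loss of each factor, and of both, does to this group of genes.

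The start regions are shown first because some sequence features, which the naming rule did not use, were more frequent there in the members than in all promoters. RefSeq promoter windows (GRCm38.p6, 250 bases before to 50 after the start) were at hand for 56 of the 76 members, as 66 entries. The longest uninterrupted run of C and T in the 15 bases on either side of the start, read on the gene's own strand, had a median length of 6 bases in the members and 4 over all 32851 promoter entries. A run of at least 8 bases was found in 26 of the 66 member entries (39.4%) and in 12% of all entries. The windows of 30 bases below hold 15 bases on either side of the start and run 5′ to 3′ on the strand of the gene, with the longest run in capitals. They are given for members on which the comparisons turn: Rps6 on chr4:86857353-86857382 (minus strand), Rpl13a on chr7:45128731-45128760 (minus strand), Rplp2 on chr7:141447636-141447665 (plus strand), Rpl28 on chr7:4792950-4792979 (plus strand), Rps2 on chr17:24720048-24720077 (plus strand), Rps3 on chr7:99483695-99483724 (minus strand), Rps15 on chr10:80292416-80292445 (plus strand) and Rpl41 on chr10:128549154-128549183 (minus strand).
Rps6: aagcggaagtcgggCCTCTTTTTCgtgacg
Rpl13a: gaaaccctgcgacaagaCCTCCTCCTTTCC
Rplp2: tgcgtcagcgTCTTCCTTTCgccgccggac
Rpl28: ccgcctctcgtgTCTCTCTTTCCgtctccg
Rps2: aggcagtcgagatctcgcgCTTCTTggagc
Rps3: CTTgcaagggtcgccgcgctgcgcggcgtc
Rps15: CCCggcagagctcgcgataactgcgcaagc
Rpl41: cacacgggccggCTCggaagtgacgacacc
The run was 10 bases long in Rps6, 13 in Rpl13a, 10 in Rplp2 and 11 in Rpl28. It was 6 bases long in Rps2 and 3 in Rps3, Rps15 and Rpl41. Members on which the comparisons turn thus lie on both sides of the median of all entries. In Rps3 and Rps15 the run lies wholly before the start, at bases -15 to -13. The first RefSeq entry of each gene was used, and its start was not tested. A short run therefore does not show that an mRNA lacks the pyrimidine run of TOP mRNAs.

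In the whole window from 250 bases before to 50 after the start, the letters CCGGAA (either strand), the core of sites for ETS factors, stood in 32 of the 66 member windows (48.5%) and in 14.9% of all windows. TGACGT, the core of sites for CREB-type factors, was found in 19.7% against 7.51%, on either strand as all motifs here. TTTGAA, the letters of the CHR element that MuvB binds, was found in 4.55% of member windows and in 17.9% of all windows, and TATAAA in 9.09% and 13.6%. CACGTG, the E-box of MYC-type factors, was found in 12.1% and 7.15%. These matches describe letters within the windows. The 100 bases before the start of Rpl41 (chr10:128549169-128549268, minus strand) and of Rps6 (chr4:86857368-86857467, minus strand) each hold 1 such match, in capitals.
Rpl41: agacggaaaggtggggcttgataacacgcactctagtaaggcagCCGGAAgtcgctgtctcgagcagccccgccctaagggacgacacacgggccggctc
Rps6: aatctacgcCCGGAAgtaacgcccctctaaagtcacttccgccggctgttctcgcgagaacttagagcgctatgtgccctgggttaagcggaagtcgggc
Of the members with a promoter entry that could be tested, 30 held CCGGAA and 22 did not. The medians of their log2 fold changes were 0.14 and 0.14 for LIN9 KO against control in experiment 2, and -0.24 and -0.24 for the double KO against LIN9 KO.

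Not every member could be measured. In all 18 libraries, 4 members had 0 counts: Rpl13 (chr8:123102350-123105244), Rpl24 (chr16:55966275-55971435), Rpl35 (chr2:39001580-39005624) and Rpl35a (chr16:33056453-33060189), all of the large subunit. A count of 0 allows up to 3 counts per library, or up to 0.316 CPM (counts scaled to library size by the TMM method) in experiment 1 and up to 1.08 CPM in experiment 2, for counting error only. In GENCODE M21 (GRCm38), all exonic bases of Rpl13 lie within the span of Gm20388, those of Rpl35 within Wdr38 and Arpc5l, and those of Rpl35a within Gm17106, while 93.4% of those of Rpl24 lie within Gm28037. Rps10 had 94.8% under RPS10-NUDT3 and Gm15420 and was counted at 6342. Over all protein-coding rows, 93.4% of the 1238 whose span lies within another gene were at 0 in all libraries, against 14.2% of the 20457 others, and no level is given for these 4 members. The other 72 members passed the filter, a mean count above 1, in both experiments.

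A second limit is the processed pseudogenes, near-identical copies of ribosomal protein mRNAs scattered over the genome. The tables hold 272 rows named as pseudogenes of members, of 58 of the 76, and 163 of these rows had counts. Their counts came to between 52.6 and 55.6 for every 100 counts of the members in each of the 18 libraries. In GENCODE M21 some of these rows are typed as protein-coding, among them Rpl10-ps3 (9218 counts in experiment 1) and Rpl9-ps6 (9028). They were kept among the pseudogene rows by their names. In each experiment, 27 members had fewer counts than their own pseudogene rows together. Rpl13, at 0 itself, had 11350 counts on its pseudogene rows in experiment 1. Rpsa, whose product is also known as the laminin receptor, had 20699 counts against 52762 on its 9 pseudogene rows. When each member was summed with its pseudogene rows, an alternative chosen after seeing the data, the median log2 fold changes below moved by less than 0.05 and the counts of members that passed became 1 higher for LIN9 KO in experiment 1 (background 11.4%), 4 higher in experiment 2 (11.8%), 6 lower for the double KO against Sav1 KO (11.9%) and 5 lower against control (10.7%).

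Levels per length were led by the stalk protein gene Rplp1. In the controls of experiment 2 it had 845 ± 102 CPM per kb of exon (SD, n = 3), and 827 ± 111 in the LIN9 wt group of experiment 1. Rpl8 followed with 481 ± 46.0, Rpl4 with 430 ± 23.0, Rps15 with 406 ± 40.5 and Rplp0, which anchors the stalk, with 396 CPM per kb (between 604 and 719 CPM before scaling to length). Rplp1 lay above Rpl8 by more than their spreads, and the 4 genes after it each differed from the next by less than the sum of their SDs. Among the lowest of the members tested were Rpl13a with 14.3 ± 2.92, Rpl9 with 12.5 ± 1.40, Rps13 with 9.64 ± 0.242 and Rps19 with 8.70 ± 0.772 CPM per kb. Rps13 (91.1% of the sum), Rpl9 (89.3%), Rps19 (72.4%) and Rpl13a (65.3%) all had most of their summed counts in experiment 2 on pseudogene rows.

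**Figure D1:**
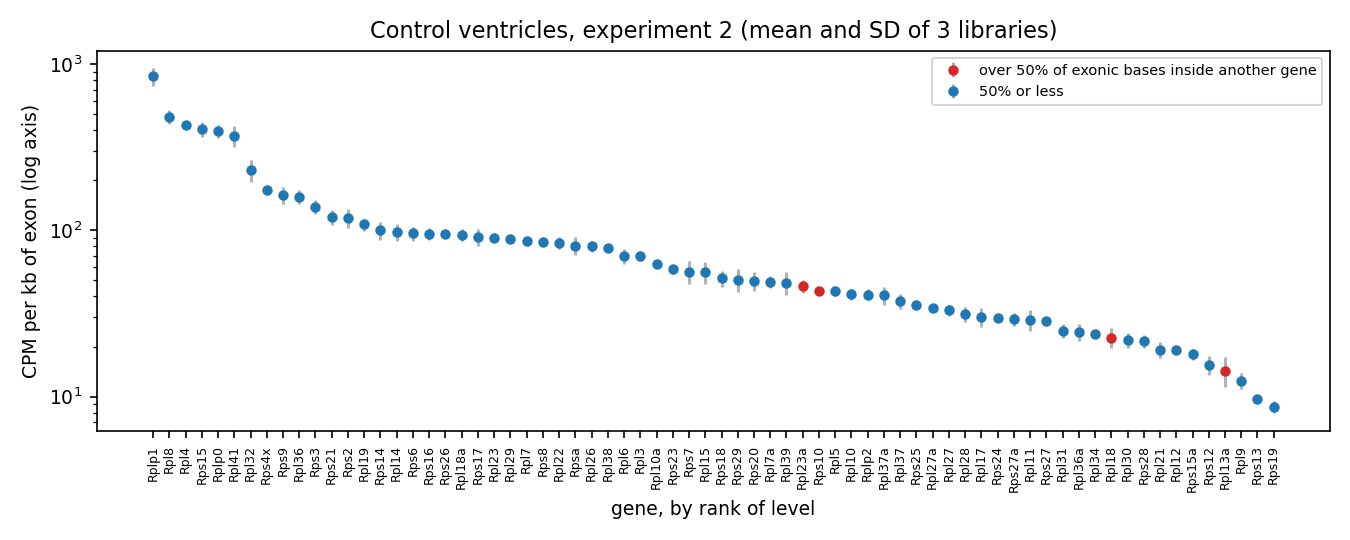
Length-scaled level of 70 members with counts in the control ventricles of experiment 2, in CPM per kb of exon on a log axis, as mean and SD of 3 libraries, ordered by rank. Rplp1 stands highest at 845 and Rps19 lowest of those shown at 8.70; the members with over 50% of their exonic bases inside another gene are in red.

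Libraries were alike in depth within an experiment, since the authors had brought them to the smallest one. Totals were 9485599 to 9615274 counts in experiment 1 and 2770741 to 2999877 in experiment 2. Lin9 was at 29.2, 28.1 and 23.2 CPM in the controls of experiment 2 and at 13.1, 15.4 and 17.9 in LIN9 KO, where it fell (log2 fold change -0.80 ± 0.19 SE, adjusted p = 0.00269, edgeR). It was at 23.5, 26.0 and 18.5 in the double KO, which overlapped the 19.2, 31.4 and 25.6 of Sav1 KO, and at 29.8, 21.4 and 25.6 in LIN9 wt against 21.4, 21.3 and 19.2 in LIN9 KO of experiment 1. Sav1 was at 54.5, 56.1 and 61.9 CPM in controls, at 43.0, 36.1 and 43.0 in Sav1 KO and at 43.9, 40.5 and 42.3 in the double KO of experiment 2. Counts over the whole gene include exons that the alleles leave in place, so they check the labels only in part. Control replicates 2 and 3 of experiment 2 were far closer to each other (chi-square of 1.22 per row) than to replicate 1 (4.90 and 5.14). They still differed by more than sampling noise. The Sav1 KO libraries were also close to each other (1.92, 1.99 and 1.39). Those of LIN9 KO (6.31, 21.6 and 15.3) and of the double KO (5.72, 7.37 and 2.84) in experiment 2 lay further apart.

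The members' reads made up 1.00% to 1.76% of all counted reads in a library. The share was 1.34 ± 0.119% in LIN9 wt and 1.46 ± 0.269% in LIN9 KO of experiment 1 (SD, n = 3). In experiment 2 it was 1.18 ± 0.124% in controls, 1.32 ± 0.106% in LIN9 KO, 1.15 ± 0.0225% in Sav1 KO and 1.09 ± 0.118% in the double KO. By library, the controls were at 1.32%, 1.11% and 1.11%, LIN9 KO at 1.43%, 1.32% and 1.22%, Sav1 KO at 1.17%, 1.13% and 1.16%, and the double KO at 1.22%, 1.04% and 1.00%. All groups overlapped in this share except LIN9 KO, which lay above Sav1 KO throughout. The share of the pseudogene rows ran along with it, from 0.528% to 0.981%.

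Within a group, the members moved together from library to library. In LIN9 KO of experiment 1, all 72 members tested were highest in replicate 3, against 35.9% of all genes tested, and the share of reads there was 1.76% against 1.35% and 1.26% in the other libraries. In LIN9 wt of experiment 1, 65 of 72 were also highest in replicate 3, against 32.4% of all genes. In experiment 2 replicate 1 was highest for 61 of 72 members in controls, 59 in LIN9 KO and 61 in the double KO, against 35.7%, 40.1% and 32.9% of all genes. In Sav1 KO the highest library was replicate 1 for 26 members, replicate 2 for 13 and replicate 3 for 33. These library-wide shifts enter the error of every comparison below, and the values without these replicates are given beside the pooled ones.

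**Figure D2:**
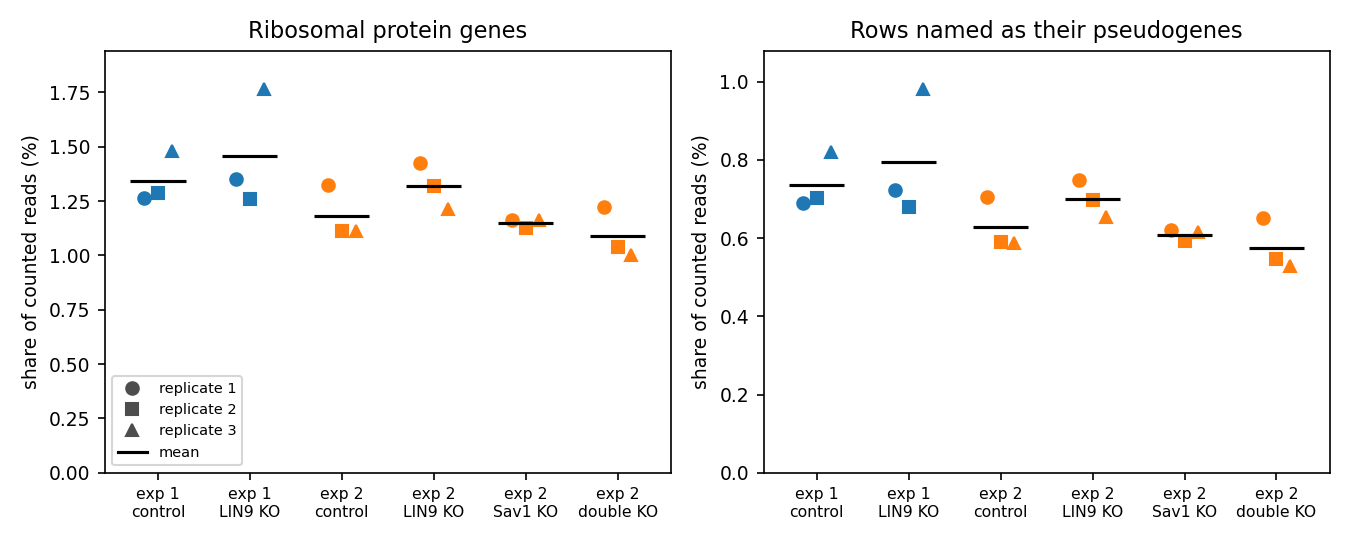
Share of counted reads (%) that fell on the 76 ribosomal protein genes (left) and on the 272 rows named as their pseudogenes (right), by library and genotype group, with experiment 1 in blue, experiment 2 in orange and the group mean as a line. Replicate 3 of LIN9 KO in experiment 1 stands highest at 1.76%, and replicate 1 stands above the others in control, LIN9 KO and double KO of experiment 2.

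On loss of LIN9 alone, most members had a log2 fold change slightly above 0, a balance that in experiment 1 was lost without 1 library. In experiment 1 the log2 fold change of LIN9 KO against LIN9 wt was above 0 for 67 of 72 members, where 51.6% of all genes were, with a median of 0.13 against 0.02 for all genes tested. Without LIN9 KO replicate 3 this became 34 above and 38 below 0 with a median of -0.01, and without replicate 3 of both groups 53 above and 19 below with a median of 0.06. In experiment 2 it was above 0 for 64 of 72, where 52% of all genes were, with a median of 0.14 against 0.01; without replicate 1 of all groups, 63 were above and 9 below 0. These experiments share no library, and 60 of 72 members (83.3%) were above 0 in both, against 40% of all genes. The 67 and 64 members above 0 in each experiment already lead to a count near 60. It therefore describes both shifts and not agreement gene by gene. Across the 72 members, Pearson's r between the experiments was 0.092 and Spearman's rho was 0.48, as a description over genes that share libraries; without 1 member, left out after its value was seen, r was 0.55. The large-subunit members had a median of 0.13 and the small-subunit members of 0.14 in experiment 1, and 0.13 and 0.16 in experiment 2.

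Few of these changes passed the test for a single gene. In experiment 1, 2 members rose and 0 fell at an adjusted p under 0.05 (edgeR's quasi-likelihood test, Benjamini-Hochberg over all genes tested), against a background of 11.1% of all genes higher and 9.78% lower. At an unadjusted p under 0.05, 6 members were higher and 0 lower, where 16.9% and 15.2% of all genes were. In experiment 2, 6 members rose and 0 fell, or 8.33% of those tested, where 12.7% of all genes were higher and 10.5% lower; at an unadjusted p under 0.05, 17 members were higher and 0 lower, where 18% and 15.4% of all genes were. In these fits on all libraries, the share of members that passed thus lay below that of all genes in both experiments. Without replicate 3 of both groups, the members that rose in experiment 1 numbered 2 (background 9.39%) and without LIN9 KO replicate 3 alone 0 passed. Without replicate 1 of all groups in experiment 2, 18 members rose, a share above the background of 12.5%, and the median was 0.15. Leaving out control replicate 2, control replicate 3 or LIN9 KO replicate 2 left 0, and LIN9 KO replicate 1 left 1, with backgrounds between 8.87% and 11.8%.

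**Figure D3:**
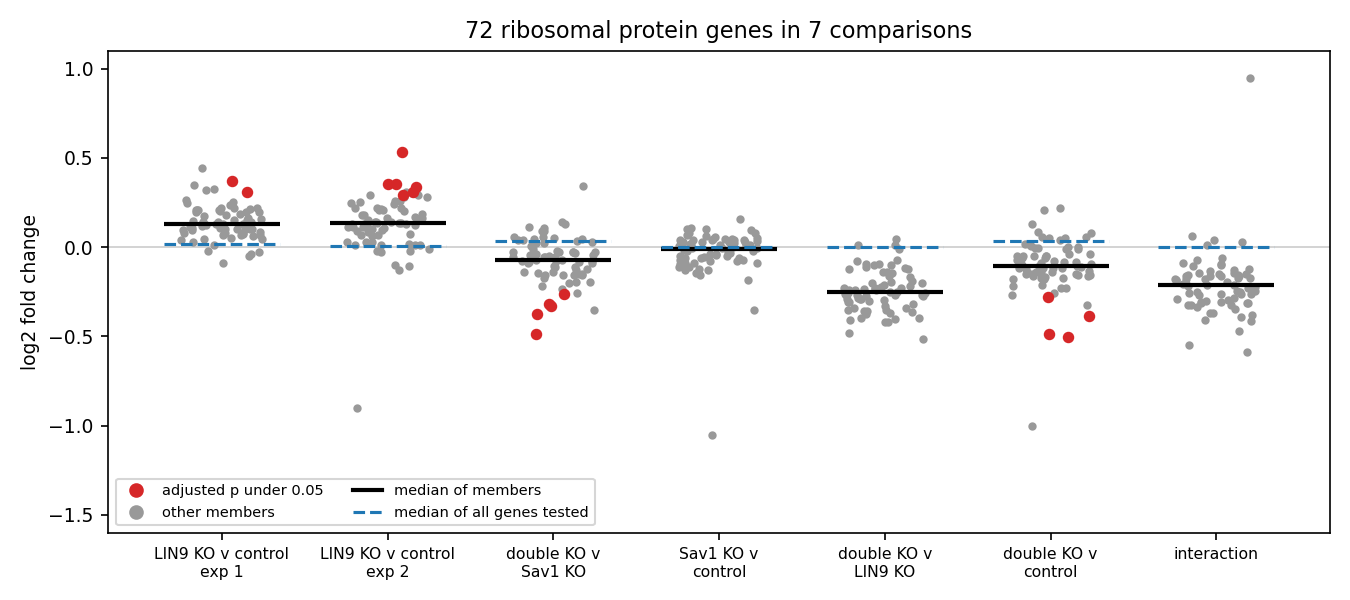
The log2 fold change of each of the 72 members tested in the 6 pairwise comparisons and the interaction, with members past an adjusted p of 0.05 in red, the median of the members as a solid line and that of all genes tested as a dashed line. The member median is at 0.14 for LIN9 KO against control in experiment 2 and at -0.25 for the double KO against LIN9 KO.

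Rpl41, the smallest ribosomal protein, was the 1 member that rose in both experiments. Rpl41 was at 356, 376 and 375 CPM in LIN9 wt and at 473, 401 and 560 in LIN9 KO of experiment 1, so that the groups did not overlap. Its log2 fold change was 0.37 ± 0.13 SE (adjusted p = 0.0498, edgeR). In experiment 2 it was at 508, 397 and 395 CPM in controls and at 544, 565 and 500.0 in LIN9 KO, where control replicate 1 lay above LIN9 KO replicate 3. The log2 fold change was 0.31 ± 0.11 (adjusted p = 0.0431, edgeR). Both adjusted p-values lie just inside the threshold, and the adjusted p ranged from 0.00909 to 0.19 over the alternatives in experiment 1 and from 0.000129 to 0.291 in experiment 2.

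Rps2, a core protein of the small subunit near the mRNA entry, was at 206, 214 and 239 CPM in LIN9 wt and at 268, 267 and 279 in LIN9 KO of experiment 1. It rose by 0.31 ± 0.10 on the log2 scale (adjusted p = 0.0498, edgeR), and the groups did not overlap. Its adjusted p ranged from 0.0114 to 0.217 over the alternatives and missed the threshold in 10 of 13. In experiment 2 Rps2 was at 250, 194 and 211 CPM in controls and at 262, 236 and 222 in LIN9 KO, which overlap (0.14 ± 0.10, adjusted p = 0.383, edgeR). Of its counts and those of its pseudogenes together, 38% in experiment 1 lay on the pseudogene rows.

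Among the members that rose with loss of LIN9 in experiment 2 were, beside Rpl41, genes of the small subunit and Rpl13a. Rps6, the protein phosphorylated by S6 kinase below mTORC1, was at 169, 145 and 142 CPM in controls and at 210, 198 and 175 in LIN9 KO. The groups did not overlap, and the log2 fold change was 0.35 ± 0.10 (adjusted p = 0.0110, edgeR). In experiment 1 Rps6 was at 162.9, 176.3 and 188.9 CPM in LIN9 wt and at 201.8, 189.5 and 237.8 in LIN9 KO, without overlap but with neighbouring values (0.25 ± 0.11, adjusted p = 0.138, edgeR).

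Rps3, which sits at the mRNA entry and also has roles in DNA repair, was at 690, 596 and 576 CPM in controls and at 837, 793 and 746 in LIN9 KO of experiment 2 (0.35 ± 0.10, adjusted p = 0.0130, edgeR). Rps16 was at 133, 116 and 113 CPM against 170, 147 and 141 (0.34 ± 0.11, adjusted p = 0.0219). In both genes the LIN9 KO libraries all lay above the controls. Over the alternatives the adjusted p ranged from 0.00133 to 0.098 for Rps6, from 0.000254 to 0.106 for Rps3 and from 0.00796 to 0.138 for Rps16. In experiment 1 Rps3 and Rps16 overlapped between the groups, with log2 fold changes of 0.22 ± 0.15 and 0.17 ± 0.14.

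Rpl13a, which can leave the ribosome and act as a repressor of translation in inflammation, had the largest increase among members that passed. Rpl13a was at 36.9, 24.7 and 29.4 CPM in controls and at 48.3, 44.2 and 39.1 in LIN9 KO of experiment 2, with a log2 fold change of 0.53 ± 0.17 (adjusted p = 0.0187, edgeR). In experiment 1 it was at 35.6, 34.5 and 34.5 CPM in LIN9 wt and at 39.2, 37.5 and 53.9 in LIN9 KO (0.32 ± 0.13, adjusted p = 0.101). The gene lies for 82.8% of its exonic bases within the span of Gm45713, and its pseudogene row held 74.6% of their summed counts in experiment 1 and 65.3% in experiment 2, so its level is uncertain. Summed with that row it changed by 0.33 in experiment 2 (adjusted p = 0.057, edgeR), and with DESeq2 the adjusted p was 0.0604. Over the alternatives the adjusted p ranged from 0.00355 to 0.176.

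**Figure D4:**
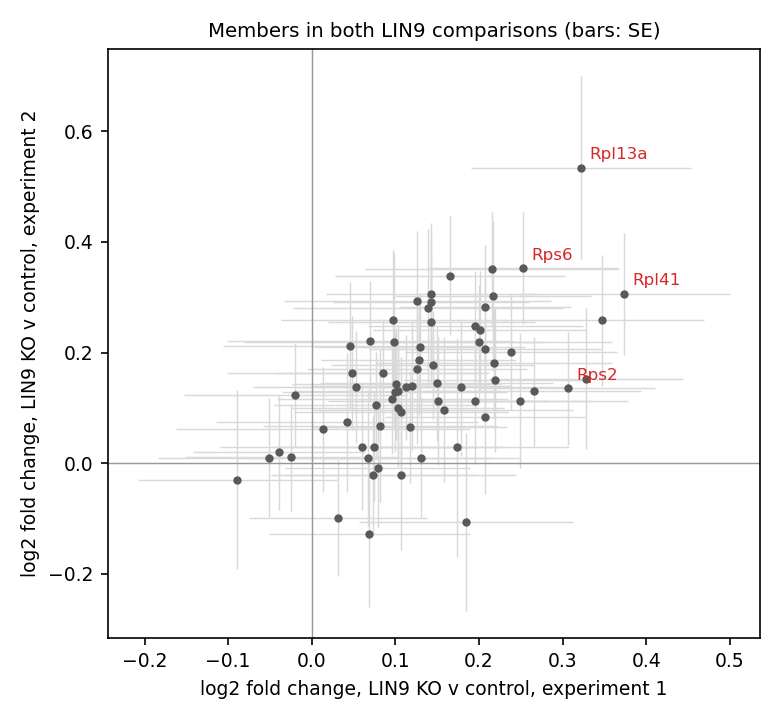
The log2 fold change of LIN9 KO against control for 70 members in experiment 1 (horizontal) and experiment 2 (vertical), with bars of 1 SE. Most points lie above 0 on both axes, with Rpl41 at 0.37 and 0.31 and Rpl13a at 0.32 and 0.53.

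The mRNA levels of cell type markers moved with the same contrast. Erythroid marker genes rose in 13 of 15 tested in experiment 1 and 15 of 15 in experiment 2, and their summed level went from between 4274 and 5359 CPM in controls to between 21240 and 39100 CPM in LIN9 KO of experiment 2. Macrophage markers (7 of 9), epicardial markers (6 of 7) and fibroblast and mesenchyme markers (7 of 8) rose in experiment 2, while 7 of 10 cardiomyocyte and 4 of 4 ventricular markers fell. The markers Alas2, Actc1 and Tnnc1 were at 0 in all libraries. Among the LIN9 KO libraries of experiment 2, the one with the most member reads (replicate 1) had the lowest erythroid sum. The same held in LIN9 KO of experiment 1, where replicate 3 had 34940 CPM against 90950 and 46950 in replicates 1 and 2. In the double KO, replicate 1 was highest in both. The part of cell composition in the member changes was not tested, and in bulk tissue fewer cells of a type and less RNA per cell cannot be told apart.

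In hearts without Sav1, most members had a log2 fold change slightly below 0 on loss of LIN9. In the fit on all libraries, the share that passed as lower lay under that of all genes. For the double KO against Sav1 KO, 53 of 72 members were below and 19 above 0, where 52.1% of all genes were above, the median was -0.07 against 0.03 for all genes, and 0 members rose while 5 fell (backgrounds 11.8% and 11.6%). At an unadjusted p under 0.05, 1 member was higher and 9 lower, where 17.7% and 16.9% of all genes were. Without replicate 1 of all groups, 10 of 72 members fell, a share near the background of 12.2%, and the median was -0.16. Leaving out Sav1 KO replicate 3 left 0, and leaving out Sav1 KO replicate 1, double KO replicate 2 or double KO replicate 3 left 2, with backgrounds between 8.35% and 10.7%. The erythroid, fibroblast and ventricular markers moved as they had with Sav1 present (13 of 15 higher, 8 of 8 higher and 4 of 4 lower).

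Rplp2, the partner of Rplp1 in the stalk that recruits elongation factors, was at 82.4, 82.7 and 87.3 CPM in Sav1 KO and at 64.0, 69.3 and 61.5 in the double KO (-0.37 ± 0.11, adjusted p = 0.0106, edgeR). The groups were well apart, and the controls, at 85.0, 78.4 and 91.3 CPM, and LIN9 KO, at 87.3, 89.2 and 81.6, lay with Sav1 KO. In experiment 1 Rplp2 was at 58.3, 57.9 and 59.0 CPM in LIN9 wt and at 53.3, 53.6 and 63.5 in LIN9 KO, which overlap. Rpl8, a protein close to the peptidyl transferase centre, was at 682, 643 and 688 CPM in Sav1 KO and at 554, 519 and 540.1 in the double KO (-0.32 ± 0.10, adjusted p = 0.0183, edgeR).

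Rps2, described above for experiment 1, fell here, from 229, 223 and 233 CPM in Sav1 KO to 195, 178 and 171 in the double KO (-0.33 ± 0.10, adjusted p = 0.0181, edgeR). Rps29, mutated in some families with Diamond-Blackfan anaemia, was at 31.3, 31.4 and 40.9 CPM against 30.0, 23.6 and 20.3 (-0.48 ± 0.17, adjusted p = 0.0345). Rps15 was at 265, 246 and 260.1 CPM against 219, 207 and 215 (-0.26 ± 0.10, adjusted p = 0.0481). In all 3 the libraries of the double KO lay below those of Sav1 KO, by the least in Rps29. With DESeq2 neither Rps29 nor Rps15 passed (adjusted p = 0.0909 and 0.0752). Rps15 missed the threshold in 8 of 14 alternatives (adjusted p from 0.0159 to 0.15) and Rps29 in 4 (0.00217 to 0.212), as did Rps2 (0.000404 to 0.0679). Rpl8 missed it in 3 (0.00172 to 0.0766) and Rplp2 in 1 (0.0074 to 0.0507).

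Loss of Sav1 in hearts with LIN9 gave no member that passed. For Sav1 KO against control the median was -0.01 against 0.00 for all genes, 33 members were above 0 and 39 below (50% of all genes above), and 0 of 72 passed with edgeR as with DESeq2 (backgrounds 0.0113% higher and 0.00566% lower). At an unadjusted p under 0.05 there were 0 higher members, where 1.84% of all genes were higher, and 1 lower member, Rps27, at 27.2, 20.2 and 22.2 CPM in Sav1 KO and 30.6, 29.8 and 28.7 in controls (-0.35 ± 0.15, adjusted p = 0.999), where 2.08% of all genes were lower. Without replicate 1 of all groups 0 members passed, but the balance turned, with 56 members above and 16 below 0 and a median of 0.05.

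Loss of Sav1 in hearts labelled LIN9 KO gave the largest median shift of the members among the 6 pairwise comparisons. Lin9 mRNA was at 23.5, 26.0 and 18.5 CPM in the double KO, above the 13.1, 15.4 and 17.9 of LIN9 KO. The part of this difference in the member changes was not tested. For the double KO against LIN9 KO, 69 of 72 members were below 0, where 50.1% of all genes were above, with a median of -0.25 against 0.00 for all genes, -0.25 for the large and -0.27 for the small subunit. The members ran from -0.51 to 0.05. At an unadjusted p under 0.05, 39 members were lower and 0 higher, where 7.09% and 4.74% of all genes were, and 32 members did not overlap between the groups, all lower, where 7.87% of all genes did so. After adjustment 0 members passed with edgeR (backgrounds 0% higher and 0.0113% lower) and 1 with DESeq2, Rps2 (adjusted p = 0.0464). Without replicate 1 of all groups 16 members fell (background 0.532%) and the median was -0.29; with the low-count filter lifted 8 fell (background 0.684%), and without LIN9 KO replicate 3 alone 6 fell (background 1.24%).

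Rpl28, a large-subunit protein, came nearest to the threshold. Rpl28 was at 67.3, 75.4 and 68.2 CPM in LIN9 KO and at 50.4, 47.5 and 49.8 in the double KO (-0.51 ± 0.11, adjusted p = 0.0839, edgeR). It passed with no filter (adjusted p = 0.0121, edgeR), with the replicate block (0.0396), without LIN9 KO replicate 3 (0.0205) and without replicate 1 of all groups (0.0194). Under every other alternative it missed the threshold, among them DESeq2, RLE factors, total counts and the fit on the 6 libraries compared. The controls, at 58.1, 51.7 and 63.6 CPM, and Sav1 KO, at 60.5, 59.1 and 58.3, lay between these groups. Rpl41 went from 544, 565 and 500.0 CPM in LIN9 KO to 477, 361 and 386 (-0.39 ± 0.11, adjusted p = 0.141), Rps2 from 262, 236 and 222 CPM to 195, 178 and 171 (-0.40 ± 0.10, adjusted p = 0.128), and Rps3 from 837, 793 and 746 CPM to 717, 579 and 563 (-0.35 ± 0.10, adjusted p = 0.157). Each of these groups was without overlap. Erythroid markers in this contrast had a median of -0.57, and none of the 15 passed.

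**Figure D5:**
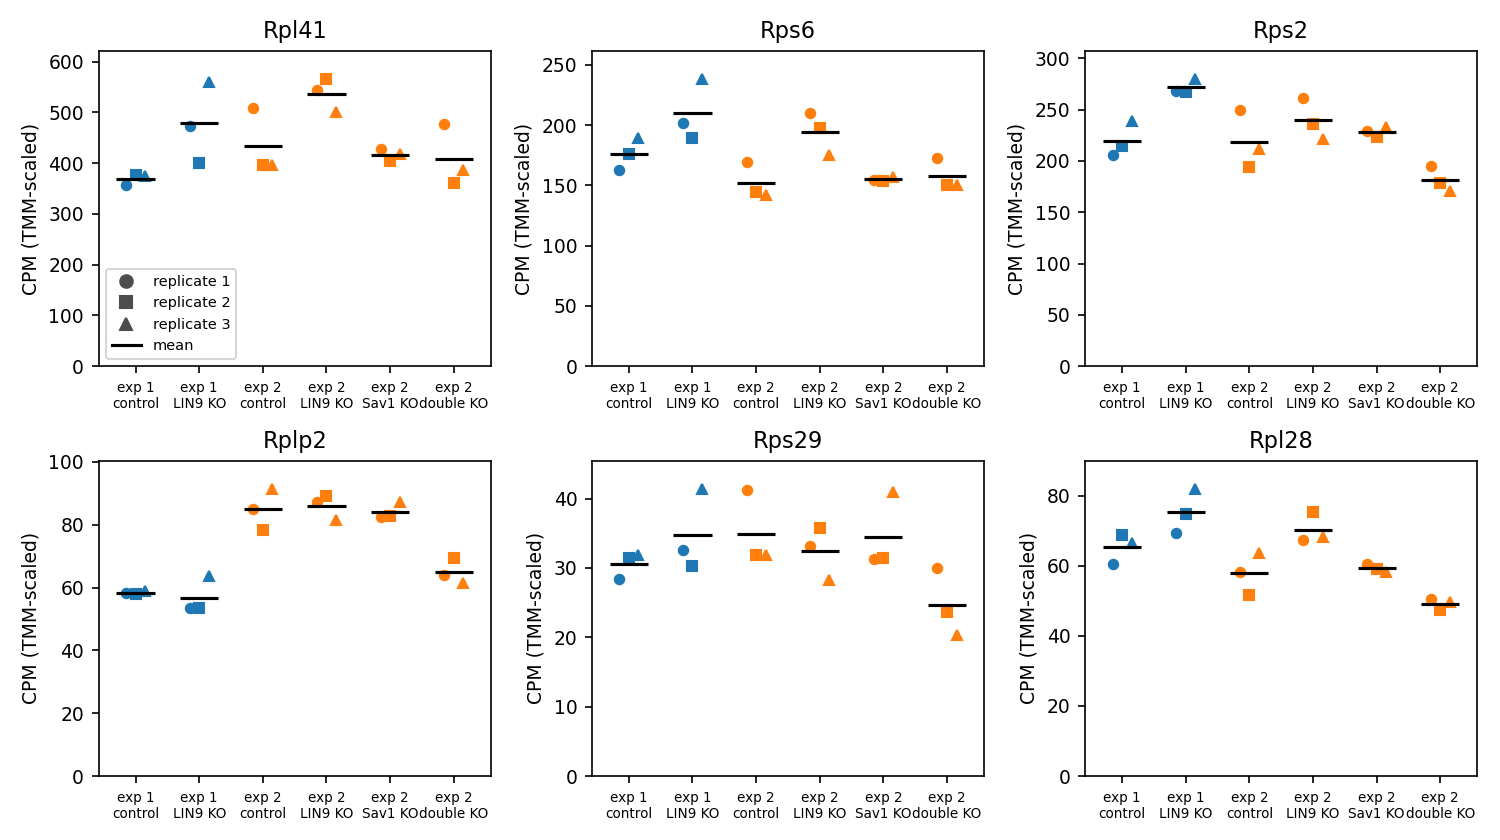
TMM-scaled CPM of 6 members in every library, by genotype group, with the group mean as a line and the replicate number as the marker; experiment 1 is in blue and experiment 2 in orange. Within experiment 2, the means of Rplp2 and Rps2 are lowest in the double KO, and Rpl28 lies higher in LIN9 KO (67.3 to 75.4) and lower in the double KO (47.5 to 50.4) than in the control libraries.

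Against control, which serves as reference for 3 of these comparisons, the double KO had 57 of 72 members below and 15 above 0, where 52.7% of all genes were above, a median of -0.11 against 0.03 for all genes, and 0 members that rose while 4 fell (backgrounds 10.7% and 9.96%). At an unadjusted p under 0.05, 0 were higher and 8 lower, where 16.7% and 15.6% of all genes were. The members that fell were Rplp2 (-0.39 ± 0.11, adjusted p = 0.00937, edgeR), Rpl36, Rps29 (-0.50 ± 0.17, adjusted p = 0.0309) and Rpl8 (-0.28 ± 0.10, adjusted p = 0.0425). Rpl36 was at 66.1, 62.3 and 54.3 CPM in controls and at 41.9, 49.3 and 39.5 in the double KO, without overlap (-0.48 ± 0.13, adjusted p = 0.0103). Rps29 was at 41.2, 31.8 and 31.8 CPM in controls and at 30.0, 23.6 and 20.3 in the double KO. Without replicate 1 of all groups 6 members fell (background 10.2%), and without double KO replicate 1 alone 11 fell (background 10.7%). Over the alternatives the adjusted p reached 0.0615 for Rplp2, 0.0543 for Rpl36, 0.192 for Rps29 and 0.209 for Rpl8, which missed the threshold in 6 of 14. Leaving out control replicate 1 left 1, and control replicate 3, double KO replicate 2 or double KO replicate 3 left 2, with backgrounds between 7.18% and 9.61%. In this contrast 10 of 15 erythroid, 8 of 8 fibroblast and mesenchyme and 7 of 9 macrophage markers rose, while 4 of 4 ventricular and 7 of 10 cardiomyocyte markers fell, and their part in the member changes was not tested.

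Whether the LIN9 effect differed with Sav1 was tested as an interaction, the LIN9 effect in Sav1 KO hearts minus that in Sav1 wt hearts. The interaction was below 0 for 67 of 72 members, where 49.9% of all genes were above, with a median of -0.21 against 0.00 for all genes. At an unadjusted p under 0.05, 15 members were below and 0 above 0, where 3.95% and 2.57% of all genes were. After adjustment 0 of 72 members, and 0 of all 17675 genes, passed with edgeR, and 0 members passed with DESeq2 (backgrounds 0%). The lowest values were those of Rpl13a (-0.59 ± 0.24), Rpl28 (-0.55 ± 0.16) and Rps2 (-0.47 ± 0.14), with adjusted p-values of 0.699, 0.68 and 0.68. Without replicate 1 of all groups the median was -0.33 and 3 members passed (background 0.068%): Rps2, Rpl32 and Rpl41.

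Of the 6 ribosomal protein genes that the naming rule leaves out, 4 were tested. Fau, whose product is cut to yield RPS30, was at 61.8, 66.8 and 69.8 CPM in LIN9 wt and at 78.4, 78.3 and 104 in LIN9 KO of experiment 1, and rose (0.40 ± 0.12, adjusted p = 0.0288, edgeR), while in experiment 2 its log2 fold change was 0.22 ± 0.13 (adjusted p = 0.257). Rack1, a scaffold on the small subunit, was at 833, 722 and 711 CPM in controls and at 952, 849 and 903 in LIN9 KO of experiment 2 (0.26 ± 0.10, adjusted p = 0.0555). Rps3a1 changed by 0.18 ± 0.10 (adjusted p = 0.22) and Rpl36al by -0.04 ± 0.14 (adjusted p = 0.868). Rps27rt, within Osbpl10, was at 0 in all libraries.

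The paralogs are close relatives of members, several of them with restricted expression. Rpl22l1 was at 25.2, 22.3 and 25.9 CPM in controls and at 29.2, 30.5 and 33.5 in LIN9 KO of experiment 2 (0.34 ± 0.16, adjusted p = 0.139, edgeR). Rps27l, a target of p53, changed by -0.18 ± 0.12 (adjusted p = 0.349). Rpl3l, the striated muscle form of Rpl3, had between 0 and 6 counts in the libraries of experiment 2. Rpl39l had at most 1 count in a library, and Rpl10l, Rpl7l1 and Rps4l were at 0 in all. None of the 3 paralogs tested passed in any comparison (edgeR).

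Of 55 ribosome biogenesis factors, 0 rose and 5 fell on loss of LIN9 in experiment 1 (median -0.08), where 11.1% of all genes were higher and 9.78% lower, and 0 rose and 17 fell in experiment 2 (median -0.29), where 12.7% were higher and 10.5% lower. The share that fell was thus near that of all genes in experiment 1 and above it in experiment 2. Those that fell in both include Bysl (-0.91 ± 0.16, adjusted p = 7.71e-05 in experiment 2), Grwd1 (-0.73 ± 0.17, adjusted p = 0.00191), Ltv1 (-0.67 ± 0.15, adjusted p = 0.00126) and Wdr12 (-0.59 ± 0.19, adjusted p = 0.0234), which act in the assembly of the subunits. In the double KO against Sav1 KO 20 of 55 fell (median -0.35, background 11.6%), and against LIN9 KO 0 of 55 passed (median 0.02, 31 above 0). In that last contrast 0 genes passed in any of the translation lists, with medians of -0.25 for the elongation factors (0 of 8 above 0), -0.20 for the ribosomal protein genes outside the naming rule (0 of 4), -0.12 for the initiation factors (7 of 25), and -0.02 for both the RNA polymerase I machinery (5 of 14) and the mTORC1 and TOP mRNA regulators (7 of 18).

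The RNA polymerase I machinery, which makes the ribosomal RNA, had 1 of 14 lower in experiment 1, where 9.78% of all genes were lower, and 3 of 14 in experiment 2, where 10.5% were. Polr1e fell in both (-1.04 ± 0.11, adjusted p = 1.2e-05 in experiment 1, and -1.47 ± 0.16, adjusted p = 5.48e-08 in experiment 2, edgeR). Of 18 mTORC1 and TOP mRNA regulators, 0 rose and 4 fell in experiment 1 (backgrounds 11.1% and 9.78%), and 2 rose and 5 fell in experiment 2 (12.7% and 10.5%). Rheb, the GTPase that activates mTORC1, fell in both (-0.35 ± 0.10 and -0.41 ± 0.10, adjusted p = 0.0182 and 0.00411), as did Larp1b (-0.83 ± 0.15 and -0.87 ± 0.17, adjusted p = 0.00124 and 0.000275).

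Of 25 initiation factors, 2 rose and 1 fell in experiment 1 (backgrounds 11.1% and 9.78%), and 3 rose and 5 fell in experiment 2 (12.7% and 10.5%). Pabpc1, the poly(A) binding protein and itself a TOP mRNA, rose in both (0.43 ± 0.13 and 0.33 ± 0.09, adjusted p = 0.0238 and 0.00767, edgeR), and Eif1ax fell in both (-0.32 ± 0.10 and -0.48 ± 0.10, adjusted p = 0.0302 and 0.000875). Of 8 elongation factors, 1 fell in experiment 1, and 3 rose and 2 fell in experiment 2, beside the same backgrounds. Eef1a2, the muscle form of elongation factor 1A, fell in both (-1.17 ± 0.11 and -1.08 ± 0.11, adjusted p = 7.4e-06 and 5.13e-08).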

How the data were processed

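RNA-seq of E13.5 ventricles was analysed in 18 libraries; the 4 ChIP-seq samples were not used here. The deposited values are unnormalised read counts by Ensembl gene: the authors mapped reads with TopHat2 2.1.0 and Bowtie2 to mm10, brought samples to the smallest number of mappable reads and counted genes of GRCm38.p6 with summarizeOverlaps, in a mode and strand setting not given in the sources used here. Such counting can leave reads within 2 genes uncounted, and mapping divides reads between genes and pseudogenes. The authors' fold change tables hold their own edgeR comparisons and were not used. All sample columns of both tables were used (0 left out), and 4 repeated identifiers were kept once.

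Genes with a mean count above 1 were tested (19752 and 17675) with edgeR 4.0.16 in R 4.3.3: TMM factors, a quasi-likelihood fit with robust estimates, and Benjamini-Hochberg adjustment over all genes tested, with a threshold of 0.05. Experiment 1 was fitted on 6 and experiment 2 on 12 libraries. CPM used TMM-scaled library sizes. DESeq2 1.42.0, RLE factors, total counts, no filter, a replicate block, a fit on 6 libraries and leaving out libraries were the alternatives; the sums with pseudogene rows and the omission of replicate 1 or 3 of every group were added after seeing the data. The test was tried on simulated data. The labels do not say that libraries came from separate embryos, and the study's text speaks both of RNA taken in triplicate and of biological replicates that were each run in triplicate, so whether the libraries of a group are independent is not settled and p-values measure only the spread between these libraries. Counting intervals and floors cover counting error only.

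Gene positions, lengths and overlaps come from GENCODE M21, and lengths are of merged exons. The members and the gene lists were chosen with earlier results of these data known. Full statistics are given for the 5 highest and 5 lowest members by length-scaled level, up to 6 members that rose and 6 that fell in a comparison, list genes that passed in both LIN9 comparisons (up to 4 per list), ribosomal protein genes outside the naming rule, paralogs, and Lin9 and Sav1. Members named beside results that missed the threshold (Rpl28, Rps27, Rps3, Rpl32) were chosen after their values were seen. Results for some genes are not reported here.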

Additional observations from a re-analysis of the deposited data

Results flagged for a closer look

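Rpl28 stands out because loss of LIN9 left all its KO libraries above the controls with Sav1 present and below Sav1 KO without it. It was at 58.1, 51.7 and 63.6 CPM in controls, below the 67.3, 75.4 and 68.2 of LIN9 KO (log2 fold change 0.28 ± 0.11 SE, adjusted p = 0.0673, edgeR), and at 60.5, 59.1 and 58.3 CPM in Sav1 KO, above the 50.4, 47.5 and 49.8 of the double KO (-0.27 ± 0.11, adjusted p = 0.0926). The difference of these effects was -0.55 ± 0.16, with an unadjusted p of 0.00184 and an adjusted p of 0.68 (edgeR), so it did not pass. No other member had both effects without overlap in opposite directions.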

How the results depend on the processing

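The direction of all 17 single-gene changes that passed was kept under every alternative run, but 90 of their 236 repeats no longer passed. Counts of members that passed moved more. For LIN9 KO in experiment 1 the 2 became 0 with RLE factors and with total counts, 4 with no filter, 5 with the replicate block and 1 for sums with pseudogene rows. For LIN9 KO in experiment 2 the 6 became 2 with DESeq2, 1 in the fit on the 6 libraries compared, and 18 without replicate 1 of every group. For the double KO against Sav1 KO the 5 became 3 with DESeq2 and 10 without replicate 1 of every group. For the double KO against LIN9 KO the 0 became 1 with DESeq2, 8 with no filter, 5 with the replicate block and 16 without replicate 1 of every group. For the interaction, omission of replicate 1 of every group gave 3 members and a median of -0.33. The share of all genes called in the same direction under these settings was 9.84% to 13.3% for LIN9 KO in experiment 1, 9.23% to 12.5% in experiment 2, 8.38% to 12.2% for the double KO against Sav1 KO, 0.124% to 0.684% against LIN9 KO, and 0.068% for the interaction. The cause was not tested.

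Leaving out 1 library at a time gave 0 to 5 members for LIN9 KO in experiment 1 (0 without LIN9 wt replicate 1 or 2 or LIN9 KO replicate 1 or 3, and 5 without LIN9 KO replicate 2), 0 to 8 in experiment 2 (0 without control replicate 2, control replicate 3 or LIN9 KO replicate 2, and 8 without control replicate 1), 0 to 7 for the double KO against Sav1 KO, 0 to 6 against LIN9 KO, 1 to 11 against control, and 0 for Sav1 KO against control and the interaction. The share of all genes called in the members' direction ran from 7.47% to 11.7%, 8.87% to 11.8%, 8.35% to 11.5%, 0% to 1.24% and 7.18% to 10.7% in the first 5 of these. The medians then ran from -0.01 to 0.23 and from 0.07 to 0.19 for LIN9 KO in experiments 1 and 2, from -0.20 to -0.041 for the double KO against Sav1 KO, from -0.34 to -0.19 against LIN9 KO, from -0.24 to -0.041 against control, from -0.07 to 0.06 for Sav1 KO and from -0.31 to -0.15 for the interaction. With haemoglobin and mitochondrial genes left out of the total, the share of member reads was 1.43% in LIN9 wt and 1.60% in LIN9 KO of experiment 1, and 1.24% in control, 1.40% in LIN9 KO, 1.21% in Sav1 KO and 1.16% in the double KO.

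Replicate numbers were not taken as pairs, since not every correlation was over 0.1: over all genes, deviations of same-numbered libraries correlated at 0.087, 0.027 and 0.082 in experiment 1, and from -0.051 to 0.39 in experiment 2. Over the members alone they were -0.045, 0.337 and 0.204 in experiment 1 and ran from -0.411 to 0.357 in experiment 2. Beside the counts given above, the block moved no count of passing members by over 1.5 times. At the depth of experiment 2, 1 count stood for about 0.33 CPM, which limits the members with few counts.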
